A study of Mus musculus with 36 samples.

Results

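Cytosolic ribosomal proteins are the protein parts of the ribosomes that translate nuclear-encoded mRNA. The genes examined here are the mouse genes whose symbol is Rpl or Rps followed by a number, with or without a short suffix, together with Rplp0, Rplp1, Rplp2 and Rpsa. Kinase genes of the Rps6k type and pseudogene symbols were left out. The array held 49 of these genes among 18193 genes with a probe set of a single symbol, and 26 of the 49 belong to the large and 23 to the small subunit. They had 105 probe sets in all, and each gene was followed through its brightest set, by the average of the 36 arrays. The choice used gene symbols and mean level only, not a difference between samples. Blood of 18 male mice aged 8 weeks was measured on 36 Affymetrix arrays, with 3 mice from each of the 6 inbred strains FVB/NJ, DBA/2J, C57Bl/6J, C3H/HeJ, A/J and 129S1/ImJ. Per the labels' protocols the blood was drawn from the heart under anesthesia into EDTA and mixed with Trizol. Each mouse gave 1 array of whole RNA, which received no treatment, and 1 array of GLOBINclear RNA, a portion of total RNA from which alpha and beta globin mRNA had been captured and removed. The design text calls the samples of a mouse paired. The labels name no transgene and no agent given to the mice beside the anesthetic. The series asks how globin mRNA affects array measurements of mouse blood.

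Ribosomal protein mRNAs are among the common mRNAs of most cells, and the proteins are made in matched amounts for assembly in the nucleolus. Many of these mRNAs begin with a C followed by a run of pyrimidines, the terminal oligopyrimidine or TOP element, through which Larp1 and the kinase mTOR control their translation. In blood, reticulocytes, the youngest red cells, still hold ribosomes and finish globin synthesis with them, and shortage of single ribosomal proteins is known for causing anemia in people. Lymphocytes, monocytes and platelets carry ribosomal protein mRNA as well. In such a mixture a smaller number of cells of a type and less RNA per cell cannot be told apart.

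Of the 49 genes, 45 were tested, since their probe set had a mean over all arrays above log2 2.89, the median of all sets. Rpl12, Rps27, Rpl39l and Rps4l were too dim, with means of 2.27 to 2.82 in whole RNA and 2.33 to 2.69 in GLOBINclear RNA. These levels are at the floor of the scale and say nothing of whether the genes are expressed. The mean over all arrays reached log2 9 for 31 genes, and 8 tested genes lay below log2 5. The chosen set is of a kind that can bind transcripts of more than 1 gene (names ending in x_at or s_at) for 16 genes, and processed copies of ribosomal protein genes are common in the mouse genome, so signal from copies cannot be separated there. The array's mean correlation with the other 2 arrays of its group was lowest for C57Bl/6J replicate 1 (0.946 whole, 0.935 GLOBINclear), 129S1/ImJ replicate 3 (0.949 and 0.951) and C57Bl/6J replicate 3 (0.957 and 0.95).

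Promoters of the genes were taken from RefSeq (GRCm38.p6), which held 43 of the 49 genes with 51 start sites on 15 chromosomes. Examples are shown for genes that rose together after depletion and for genes that differed between strains. They were not chosen by a rule, and whether the sequence goes with either behaviour was not tested. Each line runs from 60 bases before to 15 bases after the annotated start, 5′ to 3′ on the gene's strand, with the longest unbroken run of C and T within 10 bases before and 15 bases after the start in capitals.
Rpl7a, chr2:26910747-26910821 (plus strand): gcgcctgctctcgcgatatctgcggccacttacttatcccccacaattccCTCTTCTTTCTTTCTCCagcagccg
Rpl35, chr2:39005117-39005191 (minus strand): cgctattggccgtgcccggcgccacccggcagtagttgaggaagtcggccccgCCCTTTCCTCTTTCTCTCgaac
Rps18, chr17:33955651-33955725 (minus strand): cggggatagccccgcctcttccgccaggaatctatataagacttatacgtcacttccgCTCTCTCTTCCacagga
Rplp2, chr7:141447591-141447665 (plus strand): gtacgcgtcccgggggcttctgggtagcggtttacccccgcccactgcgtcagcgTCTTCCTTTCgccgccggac
Rps6, chr4:86857353-86857427 (minus strand): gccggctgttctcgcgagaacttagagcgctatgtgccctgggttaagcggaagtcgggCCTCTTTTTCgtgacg
Rps9, chr7:3703981-3704055 (plus strand): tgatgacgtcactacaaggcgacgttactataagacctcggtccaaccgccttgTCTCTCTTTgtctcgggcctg
Rps16, chr7:28350629-28350703 (plus strand): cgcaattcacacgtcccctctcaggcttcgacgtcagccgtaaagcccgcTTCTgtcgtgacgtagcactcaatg
Rpl37, chr15:5116553-5116627 (plus strand): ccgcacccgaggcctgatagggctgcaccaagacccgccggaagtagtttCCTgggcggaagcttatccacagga
Rps3a1, chr3:86142654-86142728 (minus strand): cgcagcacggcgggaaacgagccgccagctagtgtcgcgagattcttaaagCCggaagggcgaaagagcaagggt
In Rpl35, Rpl7a and Rps18 the run is 18, 17 and 11 bases long, in Rplp2 and Rps6 10, and in Rps16, Rpl37 and Rps3a1 4, 3 and 2. Bases further than 10 before or 15 after the start were not counted. In Rpl7a, Rps16 and Rpl37 the run goes on beyond that edge and is longer in the sequence. Over the 51 promoters its median length was 5, against 4 over all 32851 RefSeq promoters in the table. A run of at least 6 was present in 49.0% of the promoters of these genes and in 24.4% of all. Within the full window of 250 bases before to 50 after the start, CCGGAAG, the letters bound by factors of the GABP and Ets type, was found on either strand in 41.2% of the promoters of these genes and in 8.86% of all.  TATAAA on either strand was present in 11.8%, against 13.6% of all. These are matches of letters and not measured binding.

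After depletion most of the genes had higher signal. On the deposited scale 42 of the 45 tested genes rose and 2 fell, a count that changed to 29 and 9 when all arrays were forced to 1 distribution and to 45 and 0 when arrays were centred on the hybridization spike-ins. Over all 22518 probe sets tested, 39.4% rose and 47.6% fell, which is the background for these counts. Among the genes that rose, Rps6 passed the filter only through its GLOBINclear arrays, so its rise had to show. Most of the array is dim, and most of the genes belong to the class of 663 probe sets with a mean of at least log2 9, of which 84.2% rose and 10.1% fell. In that class all 31 ribosomal protein genes rose. The class was set by the mean over both preparations. Sets below log2 9 in whole RNA could thus enter it only through GLOBINclear RNA, and their rise had to show. This applied to Rps18 (strain means of 7.84 to 8.83 in whole RNA) and Rps19 (7.76 to 8.81), and to a part of the 84.2% as well. A rise of at least 2-fold was reached by 26 of 45 genes (18.2% of all sets), and by 20 of the 31 genes in that class (44.8% of the class). In 38 genes every one of the 18 mice was higher in GLOBINclear RNA, and the other 4 that rose (Rps2, Rps6, Rps7 and Rps25) did so in 16 or 17 mice. The share of all sets, or of the class, that was higher in every mouse was not counted. In 16 genes all 18 GLOBINclear arrays lay above all 18 whole arrays (4.83% of all sets). For the 31 genes of at least log2 9 this held in 13 (15.1% of the class).

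**Figure D1:**
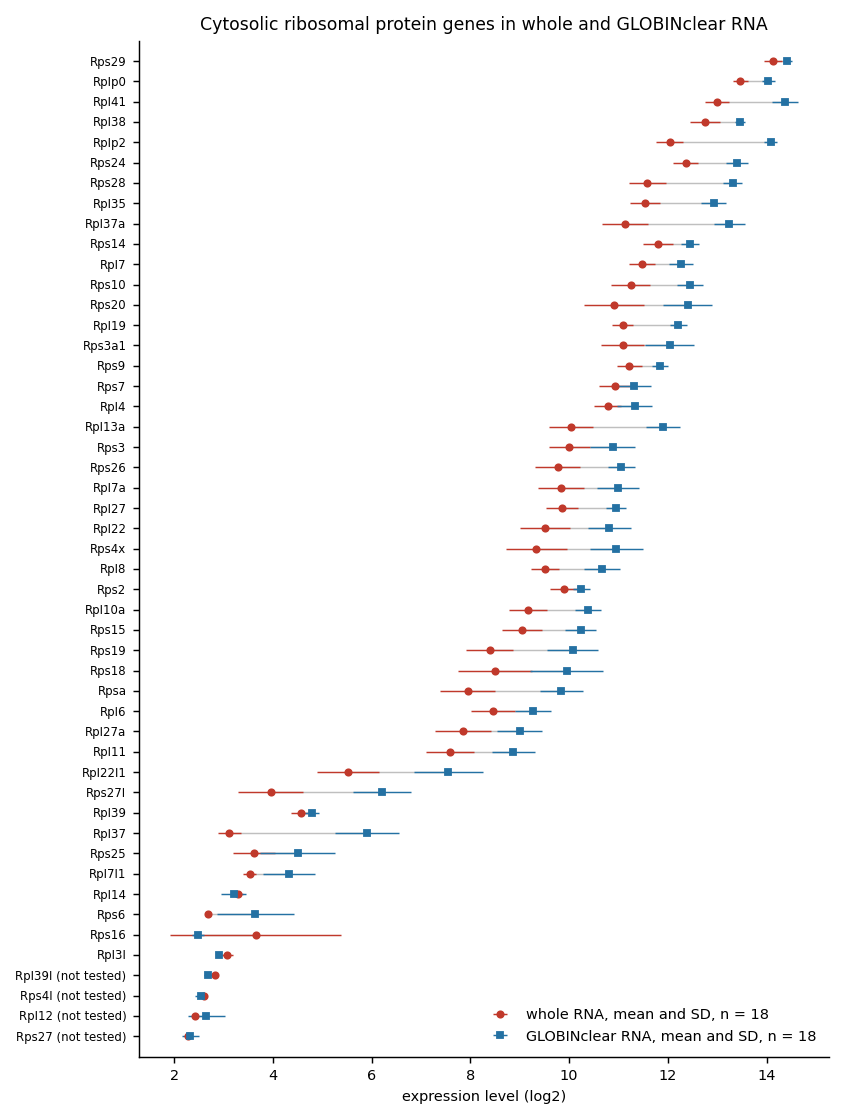
Level (log2) of the 49 genes, 1 row per gene, in whole RNA (circles) and GLOBINclear RNA (squares), with bars for the SD over 18 mice; rows are sorted by their mean only for display, since levels of different probe sets cannot be compared. On the deposited scale the square lies to the right of the circle for all genes of at least log2 9, while Rps16, Rpl3l, Rpl14 and the untested Rpl39l and Rps4l lie the other way; with spike-in centring the first 3 turn as well, and with 1 distribution for all arrays 9 genes fall.

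The median log2 change was 1.14 over the 45 genes and -0.05 over all sets tested, and 1.16 against 0.89 within the class of at least log2 9. Among sets with a mean above log2 5 the order turned, with 1.19 over 37 genes against 1.31 over all sets, of whose calls 93.4% were rises. That mean, like the one that set the class of at least log2 9, was taken over both preparations. Sets dim in whole RNA, Rps27l among the genes, could therefore pass only through their rise. The 1.31 and the 93.4% include such sets, so the turned order is a description of that selection. Between genes of like level in whole RNA the gap to the array depended on that level. For whole RNA levels of 5 to 9 the median change was 1.45 over 7 genes and 1.29 over all sets. It was 1.18 over 14 genes and 1.00 over all sets at 9 to 11, 1.13 over 9 genes and 0.72 at 11 to 12, and 0.87 over 6 genes and 0.11 over 131 sets at 12 to 16. Below 5 it was 0.80 over 9 genes and -0.10 over all sets. The genes lay above all sets in each of the 5 ranges, by most below 5 and at 12 to 16, where the median of all sets was near 0. No test of these medians was made. The subunits had like medians, 1.15 over 24 large-subunit genes (22 rose) and 1.04 over 21 small-subunit genes (20 rose).

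**Figure D2:**
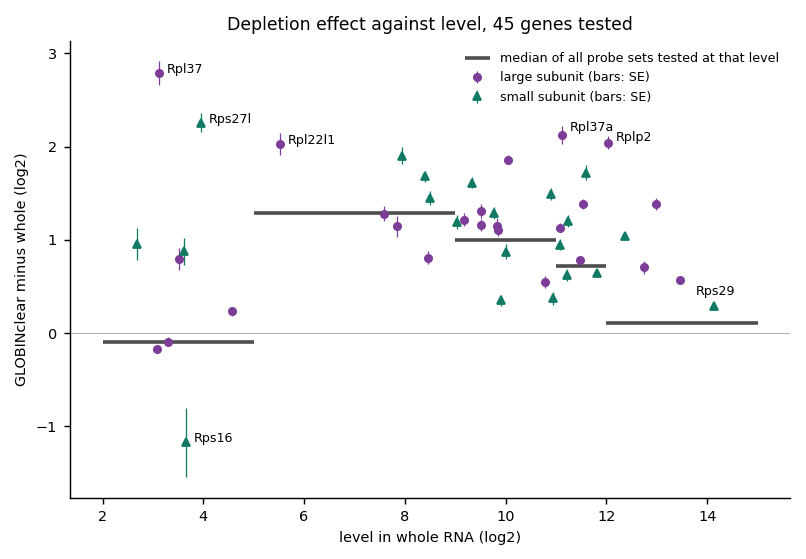
Change after depletion (GLOBINclear minus whole, log2, with its SE) against the level in whole RNA (log2) for the 45 tested genes, large subunit as circles and small subunit as triangles; dark horizontal lines are the median change of all probe sets tested within 5 ranges of level. Above log2 9 the genes range from 0.29 (Rps29) to 2.12 (Rpl37a), all positive on the deposited scale, while Rps16 lies at -1.17; with all arrays forced to 1 distribution 9 genes fell, Rpl4, Rps2, Rps7 and Rps9 among them.

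Rpl37, a zinc-binding protein of the large subunit, rose most. Its level was 2.47 to 3.41 (median 3.06) in whole RNA and 4.70 to 7.03 (median 6.00) in GLOBINclear RNA. Every GLOBINclear array lay above every whole array, and the whole arrays were all near the floor of the scale. The log2 change was 2.79 ± 0.13 (SE, n = 18 mice; limma adjusted p = 1.18e-13). Since a level at the floor holds background, the size of this change is uncertain.

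Rpl37a, a different zinc-binding protein of the large subunit despite its name, rose by less, but from well above the floor. It ranged from 10.08 to 11.70 (median 11.33) in whole RNA and from 12.45 to 13.63 (median 13.29) in GLOBINclear RNA, without overlap. The change was 2.12 ± 0.10 (SE, adjusted p = 1.0e-13), and its other probe sets rose by 1.5 and 0.72. Rplp2, a protein of the stalk that recruits translation factors, ranged from 11.41 to 12.41 (median 12.09) in whole RNA and from 13.86 to 14.30 (median 14.06) after depletion. The preparations did not overlap, and the change was 2.04 ± 0.07 (SE, adjusted p = 2.77e-15), a 4.12-fold rise. Rplp0, which anchors that stalk, rose less, from 13.17 to 13.80 (median 13.46) to 13.73 to 14.22 (median 14.05), with overlapping preparations and a change of 0.57 ± 0.02 (SE). Its values in every mouse were higher after depletion. Rplp0 is often used as a reference gene, and here it was 1.48-fold higher in GLOBINclear RNA.

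Other large rises belonged to genes of varied roles. Rpl13a, which is also known as a regulator of inflammatory mRNA translation, rose by 1.86 ± 0.05 (SE), from a median of 9.97 to one of 11.89, with no overlap. Rpsa, a small-subunit protein also described as a laminin receptor precursor, rose by 1.90 ± 0.09, from a median of 7.93 to 9.84, again with no overlap. Rps28, a small-subunit protein, rose by 1.72 ± 0.08, from a median of 11.69 to 13.31. The smallest changes among genes of at least log2 9 were those of Rps29 (0.29 ± 0.03), Rps2 (0.35 ± 0.06), Rps7 (0.37 ± 0.07) and Rpl4 (0.54 ± 0.06). These 4 were picked after their values were seen. Rps29 stood at 13.82 to 14.45 in whole RNA and at 14.23 to 14.54 after depletion, close to the top of the scale.

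Pairs of related genes did not always share a change. Rpl22, a large-subunit protein needed for development of T cells, went from a median of 9.46 to 10.85 and rose by 1.31 ± 0.08 (SE). Its paralog Rpl22l1 went from a median of 5.66 to 7.72 and rose by 2.03 ± 0.11. Rps27l, a p53-induced paralog of Rps27, ranged from 2.97 to 5.70 in whole RNA and from 5.43 to 7.70 after depletion, and rose by 2.25 ± 0.10. Rps27 itself was at 2.25 to 2.30 and 2.23 to 2.87, below the level required for a test. Rpl39, a protein of the exit tunnel, rose by 0.23 ± 0.05 from a median of 4.62, while its paralog Rpl39l was too dim to test. With all arrays forced to 1 distribution Rpl39 was among the 9 genes that fell. Rpl7 rose by 0.78 ± 0.05 and Rpl7l1 by 0.80 ± 0.12. Rps4x rose by 1.61 ± 0.06, and its copy Rps4l was too dim. Rpl7a, Rpl10a, Rpl13a, Rpl27a, Rpl37a and Rps3a1 carry an extended name but are proteins of their own, and Rpl27 and Rpl27a rose by 1.11 ± 0.07 and 1.14 ± 0.12. Likeness within a pair depended on the probe set. Other Rpl27 sets rose by 2.36 to 2.92 and by 2.48 to 3.07 in the strains, and another Rpl22 set by 0.38 to 0.89. Differences within pairs were not tested.

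Of the genes that did not rise, Rpl3l and Rpl14 lay near the floor. Rpl3l, a paralog of Rpl3 found in muscle, went from 2.96 to 3.45 (median 3.06) to 2.82 to 2.95 (median 2.90) and fell by 0.18 on the log2 scale (SE 0.03, adjusted p = 3.25e-06), lower in all 18 mice; with spike-in centring it was higher by 1.90. Rpl14, a large-subunit protein, went from a median of 3.28 to 3.17, a change of -0.09 ± 0.05 (adjusted p = 0.085), which did not pass; with spike-in centring it was higher by 1.98. Without DBA/2J replicate 3 the change of Rpl14 was -0.12 with an adjusted p of 0.0155, and without C57Bl/6J replicate 1 it was -0.12 with an adjusted p of 0.0299. Over all 87 tested probe sets of the genes, 76 rose, 6 fell and 5 did not pass. The 6 that fell were all among the 17 sets with a mean below log2 5. Of the 70 sets of at least log2 5, 69 rose, and the exception was a set of Rps9 described below. Of 19 genes with at least 2 tested sets, 14 had all of them changed in 1 direction.

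Rps16, a small-subunit protein that touches the tRNA in the ribosome's P site, had the most uneven change. In whole RNA its level was 6.69, 5.61 and 5.90 in A/J and 6.31, 3.86 and 6.94 in DBA/2J. All other whole arrays lay between 2.49 and 2.64, and all 18 GLOBINclear arrays between 2.35 and 2.87. Signal above the floor was thus present in the whole RNA of 2 strains alone and was not seen in the GLOBINclear RNA of the same mice. The change was -3.42 ± 0.37 (SE) in A/J and -3.23 ± 0.37 in DBA/2J, and between -0.15 and 0.03 in the other strains. Averaged over all mice it fell by 1.17 on the log2 scale (SE 0.37, adjusted p = 0.00600, lower in 16 of 18 mice). With spike-in centring the same average was higher by 0.90, while the difference between strains passed the threshold in both cases.

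Rps16 exceeded the level required for a test only through the whole arrays of A/J and DBA/2J, since its other strain means lay between 2.38 and 2.65, so its tests had to show a difference and its values are a description. The test of whether the depletion effect differed between strains gave it an adjusted p of 0.000927 (limma F test), and none of the other 44 genes passed. This is 1 of 45 genes, against 2.75% of all probe sets tested, and with the filter at log2 5, where Rps16 was not tested, it was 0. It was also 0 of the 31 genes of at least log2 9, against 3.32% of that class. An unadjusted p under 0.05 was reached by 8 genes, and the share of all sets that did so was not counted. The next genes were Rps6 (adjusted p = 0.059), Rpl4 (0.0875), Rps25 (0.0877), Rpl37 (0.0906) and Rpl27a (0.255). Rps6, the substrate of S6 kinases, passed without 129S1/ImJ replicate 1 (adjusted p = 0.0467), C57Bl/6J replicate 1 (0.00975) or C57Bl/6J replicate 3 (0.0154). Rpl37 also passed without the first of these mice (0.0346) and Rps25 without the last (0.0154), so that the count became 3 in either case. Rps6 entered the tests only through GLOBINclear RNA, so its values here are a description. Rpl4, a protein of the exit tunnel, changed by 0.18 ± 0.10 (SE) in FVB/NJ and 0.92 ± 0.10 in DBA/2J, and Rps25, a small-subunit protein, by 0.07 ± 0.23 in 129S1/ImJ and 1.75 ± 0.23 in C3H/HeJ. Without a passing test these are values and not a difference between strains.

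A second kind of strain-restricted signal was seen in a probe set of Rps9 that is not its brightest, singled out after its values were seen. Rps9 is a small-subunit protein at the entry of the mRNA channel. The set stood at 8.23, 8.6 and 8.03 in whole RNA and 10.86, 9.53 and 10.23 in GLOBINclear RNA of C57Bl/6J. All other arrays lay between 5.21 and 6.24. C57Bl/6J exceeded the mean of the other 5 strains by 3.48 ± 0.14 (SE, adjusted p = 5.97e-10). The set rose by 1.92 ± 0.23 after depletion in C57Bl/6J and changed by -0.65 to -0.14 in the other strains, and the effect differed between strains (adjusted p = 0.00146). Averaged over strains its change was -0.04 ± 0.22 (adjusted p = 0.856). Without any 1 mouse the C57Bl/6J difference stayed between 3.33 and 3.57. Rps9's brightest set showed no such pattern. It ranged from 10.85 to 11.74 in whole RNA and from 11.56 to 12.12 in GLOBINclear RNA, rose in all 18 mice by 0.62 ± 0.07, and had adjusted p-values of 0.26 and 0.475 for strain differences in the preparations. Which transcripts each set measures in each strain was not tested.

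**Figure D3:**
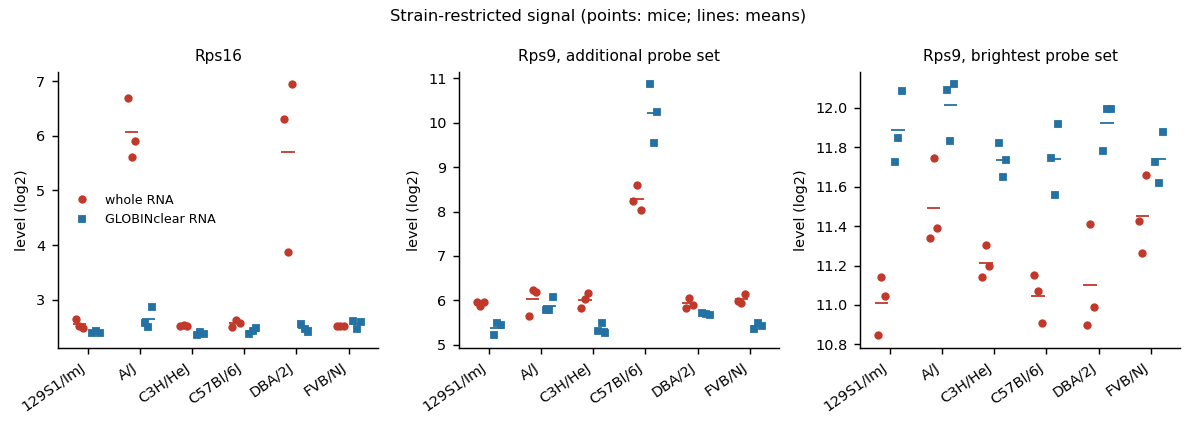
Level (log2) on each array by strain for Rps16 (left), the additional Rps9 probe set (middle) and the brightest Rps9 set (right), whole RNA as circles and GLOBINclear RNA as squares, with 3 mice per strain and lines for their means. Rps16 is above the floor only in whole RNA of A/J and DBA/2J (3.86 to 6.94), and the additional Rps9 set stands apart in C57Bl/6J in both preparations (8.03 to 10.86), while the brightest Rps9 set overlaps across strains.

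Strain differences within a preparation were tested across all 6 strains with an F test in limma. In whole RNA 3 of 45 genes passed (6.67%, against 4.32% of all sets), namely Rps16 (adjusted p = 0.000477), Rpl27a (0.031) and Rps3a1 (0.0458). Rps16 had to pass, since only the whole arrays of A/J and DBA/2J brought it past the filter. In GLOBINclear RNA 9 passed (20.0%, against 11.2% of all sets). Within the class of at least log2 9 the shares lay below the background, with 1 of 31 genes (3.23%) against 28.1% of the class in whole RNA and 7 of 31 (22.6%) against 39.8% in GLOBINclear RNA. The 9 genes were Rps14, Rpl37, Rpl37a, Rps3a1, Rps20, Rpl41, Rps6, Rpl7 and Rps19. Among them Rps6 passed the filter only through its GLOBINclear arrays, so its values are a description. Rps3a1 was shared by both preparations, but in whole RNA it passed in 3 of 18 fits without 1 mouse (adjusted p up to 0.103), and Rpl27a in 11 (up to 0.116). Rps14, Rpl37, Rpl37a, Rps3a1 and Rps20 passed in all 18 fits that left out 1 mouse, and Rpl7 (adjusted p = 0.0385, and 0.0595 without C57Bl/6J replicate 3) and Rps19 (0.0486) in 3 each. Rps19, whose loss causes Diamond-Blackfan anemia in people, passed without 129S1/ImJ replicate 1 or C57Bl/6J replicate 1 or 3. Rpl35, Rps14, Rpl7a, Rplp0 and Rpl37 came next in whole RNA with adjusted p-values of 0.0601, 0.0751, 0.0812, 0.154 and 0.161. An unadjusted p under 0.05 was reached by 17 genes in whole and 21 in GLOBINclear RNA. The share of all sets that did so was not counted, so these counts have no background beside them. Whether more genes differ in one preparation than in the other was not tested. Without C57Bl/6J replicate 1, 18 genes passed in GLOBINclear RNA, the 9 genes included, against 13.7% of all sets in that fit. Without C57Bl/6J replicate 2 or without FVB/NJ replicate 1, 6 passed, against 8.93% and 9.47% of all sets. In whole RNA the count was 1 to 4 with any 1 mouse left out, and it was 1 without 129S1/ImJ replicate 1 or 2, A/J replicate 3, C3H/HeJ replicate 2, DBA/2J replicate 3, or FVB/NJ replicate 1 or 3. With spike-in centring 11 genes passed in whole RNA (6.45% of all sets) and 1 (Rpl37) in GLOBINclear RNA (7.43% of all sets).

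For the 31 genes of at least log2 9 the highest and the lowest strain mean differed by a median of 0.57 in whole RNA and 0.62 in GLOBINclear RNA. All sets of that class had medians of 1.05 and 0.82. The spread between mice of 1 strain, as a median SD, was 0.30 and 0.20 for the genes and 0.34 and 0.27 for the class. The genes therefore varied between strains over a smaller range than the class did, as a description without a test. Their mean level over the 31 genes in GLOBINclear RNA was highest in A/J at 12.13 ± 0.04 (SD, n = 3) and lowest in FVB/NJ at 11.71 ± 0.14. It was 12.11 ± 0.12 in DBA/2J and 11.84 ± 0.33 in C57Bl/6J. In C57Bl/6J the spread came with replicate 1 at 12.21 beside 11.74 and 11.58.

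Rps14, a small-subunit protein whose loss of 1 gene copy is known from an anemia with a chromosome 5q deletion in people, had the smallest p for strain differences in GLOBINclear RNA (adjusted p = 0.000407), over a range of strain means of 0.50. It stood at 12.13, 12.14 and 12.23 in A/J, and all other GLOBINclear arrays lay between 12.26 and 12.69. Whole RNA of A/J gave 11.05, 11.60 and 11.44, against 11.35 to 12.17 elsewhere. A/J was thus lowest in GLOBINclear RNA without overlap and overlapped the others in whole RNA. Over both arrays of each mouse, A/J was lower than the mean of the other 5 by 0.43 on the log2 scale (-0.43 ± 0.07 SE, adjusted p = 0.00309), and the second Rps14 set gave -0.63 ± 0.10. With spike-in centring the difference was -0.29 with an adjusted p of 0.119.

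Rpl37 was high in A/J and low in 129S1/ImJ and C57Bl/6J (adjusted p = 0.00187 in GLOBINclear RNA). Its GLOBINclear levels were 6.58, 6.72 and 7.03 in A/J, above all other arrays (4.70 to 6.38). They were 5.48, 5.34 and 4.80 in 129S1/ImJ and 5.53, 4.70 and 5.04 in C57Bl/6J, below all arrays of the other 4 strains. In whole RNA the same gene was near the floor in all strains (2.47 to 3.41). A/J lay above the mean of the other 5 strains by 0.67 ± 0.10 (SE, adjusted p = 0.00168), 129S1/ImJ below it (-0.59 ± 0.10, adjusted p = 0.00288) and C57Bl/6J below it (-0.53 ± 0.10, adjusted p = 0.00607). The C57Bl/6J difference did not pass without C57Bl/6J replicate 2 (-0.42, adjusted p = 0.0796). Without C57Bl/6J replicate 1 it passed.

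Rpl37a was low in 129S1/ImJ (adjusted p = 0.00201 in GLOBINclear RNA). Its GLOBINclear levels there were 12.87, 12.45 and 12.83, below the 12.93 to 13.63 of all other arrays, and its whole levels of 10.54, 10.82 and 10.54 overlapped the 10.08 to 11.70 of the others. The difference from the other 5 strains was -0.61 ± 0.13 (SE, adjusted p = 0.0101), and the second bright set gave -0.56 ± 0.10. Rps3a1, a small-subunit protein near the exit of the mRNA channel, was high in A/J (adjusted p = 0.0064 over strains in GLOBINclear RNA). Its GLOBINclear levels were 12.53, 12.64 and 12.72 in A/J and 11.18 to 12.50 elsewhere, so that A/J lay above all others. FVB/NJ (11.81, 11.27 and 11.57) and C57Bl/6J (12.06, 11.18 and 11.18) held the low values, with C57Bl/6J replicate 1 apart from its group. Differences from the other 5 strains were 0.67 ± 0.15 (SE) in A/J, -0.57 ± 0.15 in FVB/NJ and -0.53 ± 0.15 in C57Bl/6J. The A/J difference did not pass when any of the 3 A/J mice was left out (adjusted p up to 0.159), and the FVB/NJ and C57Bl/6J differences passed in 4 and 3 of 18 such fits. The C57Bl/6J difference was -0.81 without C57Bl/6J replicate 1, -0.33 (adjusted p = 0.242) without C57Bl/6J replicate 3 and -0.51 (adjusted p = 0.0546) without 129S1/ImJ replicate 3. The FVB/NJ difference was -0.55 (adjusted p = 0.0509) without 129S1/ImJ replicate 3.

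Rpl41, which encodes a very short basic peptide of the large subunit, was low in C57Bl/6J (adjusted p = 0.00973 in GLOBINclear RNA). Its GLOBINclear levels there were 13.96, 13.69 and 14.04, against 14.19 to 14.66 on all other arrays. In whole RNA C57Bl/6J gave 12.57, 12.87 and 12.65, within the 12.52 to 13.36 of the others. C57Bl/6J lay below the other 5 strains by 0.46 on the log2 scale (-0.46 ± 0.06 SE, adjusted p = 0.000284). The F test did not pass without C57Bl/6J replicate 2 (adjusted p = 0.0745), and the other 3 sets of Rpl41 gave -0.13, -0.07 and -0.02, none past the threshold.

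Rps6 was near the floor in whole RNA on all arrays (2.57 to 2.76), so that it entered the tests only through GLOBINclear RNA, and rose above it after depletion in some strains. Its rise therefore had to show, and its values are a description. Its GLOBINclear levels were 4.95, 4.89 and 4.52 in FVB/NJ and 5.22, 3.95 and 3.40 in C57Bl/6J. The remaining strains lay between 2.56 and 3.92. FVB/NJ therefore stood above every array but C57Bl/6J replicate 1. FVB/NJ exceeded the other 5 strains by 0.70 ± 0.14 (SE, adjusted p = 0.00935), which missed the threshold without FVB/NJ replicate 1 (0.66, adjusted p = 0.060), as did the F test (adjusted p = 0.0507).

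**Figure D4:**
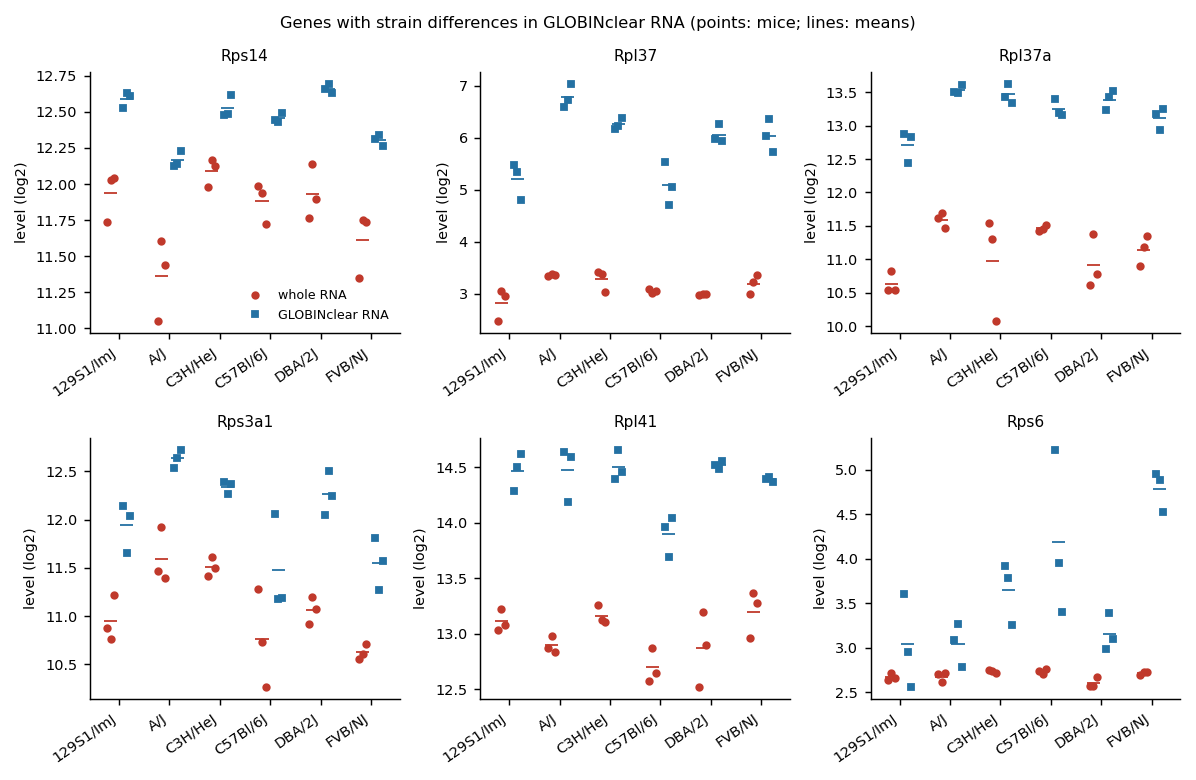
Level (log2) on each array by strain for 6 of the 9 genes with strain differences in GLOBINclear RNA, whole RNA as circles and GLOBINclear RNA as squares, with 3 mice per strain and lines for their means. A/J is lowest for Rps14 (12.13 to 12.23) and highest for Rpl37 and Rps3a1, 129S1/ImJ is lowest for Rpl37a, C57Bl/6J for Rpl41, and FVB/NJ reaches 4.52 to 4.95 for Rps6; each of these orders refers to GLOBINclear RNA.

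Set against the mean of the other 5 strains, with both arrays of a mouse averaged, the genes gave 18 calls over the 6 strains. In 129S1/ImJ 6 genes were lower (3.02% of all sets, 16.1% of the class of at least log2 9) and 0 higher in limma's test (2.76% of all sets, 8.45% of the class), and 15 genes had an unadjusted p under 0.05 in either direction. Besides Rpl37 and Rpl37a the 6 lower genes were Rpl27a, Rpl7a, Rpl7 and Rps29. The share of all sets with an unadjusted p under 0.05 was not counted for this or any other strain. Rpl27a, a large-subunit protein, stood at 6.38, 7.07 and 7.16 in whole RNA of 129S1/ImJ and at 7.52 to 8.68 on all other whole arrays, while its GLOBINclear levels of 8.38, 8.92 and 8.34 overlapped the 8.52 to 10.27 of the others. The difference was -0.86 ± 0.19 (SE, adjusted p = 0.0152). It did not pass without 129S1/ImJ replicate 1 (-0.69, adjusted p = 0.112) or replicate 3 (-0.88, adjusted p = 0.0542). Rpl7a, a large-subunit protein, stood at 9.11, 9.16 and 9.18 in whole RNA there, below the 9.34 to 10.76 of the others, and its GLOBINclear levels of 10.67, 9.90 and 10.74 overlapped the 10.60 to 11.81 of the others. The difference was -0.74 ± 0.16 (adjusted p = 0.0118, and 0.0713 without 129S1/ImJ replicate 2). Rpl7 (-0.37 ± 0.09) missed the threshold without 129S1/ImJ replicate 1 (adjusted p = 0.176) or 2, and Rps29 (-0.19 ± 0.05) passed in 5 of 18 fits without 1 mouse. Without 129S1/ImJ replicate 3 the Rps29 difference was -0.14 (adjusted p = 0.272), and without C57Bl/6J replicate 3 -0.18 (adjusted p = 0.0632).

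A/J had 3 genes higher (Rps16, Rpl37 and Rps3a1, against 1.55% of all sets and 5.73% of the class) and 1 lower (Rps14, against 1.69% and 6.49%). Including those that did not pass, 37 of the 45 genes had a positive difference in A/J, with a median of 0.16, against -0.01 over all sets tested. The share of all sets with a positive difference was not counted, and all genes were read from the same mice. Rps16 exceeded the other strains by 1.55 ± 0.20 (SE, adjusted p = 0.000453) in A/J and by 1.23 ± 0.20 (adjusted p = 0.00277) in DBA/2J. These Rps16 calls had to show, since only the whole arrays of A/J and DBA/2J brought it past the filter, and are a description. Rps10, a small-subunit protein, was not called through its brightest set, but 3 of its other sets were higher in A/J by 0.84, 0.64 and 0.57. C57Bl/6J had 4 genes lower (1.93% of all sets, 10.4% of the class) and 0 higher in limma's test (3.87% and 11.9%), and 7 genes had an unadjusted p under 0.05 in either direction. These were Rpl41, Rpl37, Rps3a1 and Rps20. Rps20, a small-subunit protein, stood at 10.96, 10.34 and 9.47 in whole and 12.43, 11.65 and 11.36 in GLOBINclear RNA there, which overlapped the other strains (10.05 to 12.12 and 11.58 to 13.26). Its difference of -0.74 ± 0.20 (adjusted p = 0.046) passed in 4 of 18 fits without 1 mouse and was -1.07 without C57Bl/6J replicate 1 but -0.43 (adjusted p = 0.249) without C57Bl/6J replicate 3. A second bright set gave -0.90 ± 0.23, and a dim one 0.01.

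DBA/2J had Rps16 higher (1.03% of all sets, 1.81% of the class) and Rpl35 lower (1.11% and 7.84%). The Rps16 call had to show, as said above, and is a description. Rpl35, a large-subunit protein at the mouth of the exit tunnel, stood at 12.59, 12.70 and 12.53 in GLOBINclear RNA of DBA/2J, below the 12.74 to 13.58 of all others. Its whole levels were 10.73, 11.39 and 10.92, where all other whole arrays were at 11.31 or more. The difference was -0.51 ± 0.10 (SE, adjusted p = 0.00919, and 0.105 without DBA/2J replicate 1; it did not pass without replicate 3 either). The other 4 tested Rpl35 sets gave -0.64 to -0.58, 3 of them past the threshold. FVB/NJ had Rps6 higher (2.76% of all sets, 11.6% of the class) and Rps3a1 lower (0.995% and 2.71%). Rps6 passed the filter only through GLOBINclear RNA, as said above, and its call is a description. In FVB/NJ 30 of the 45 genes had a negative difference, with a median of -0.09, against 0.01 over all sets tested. The share of all sets with a negative difference was not counted. In C3H/HeJ 0 genes passed in limma's test (0.751% of all sets and 2.56% of the class were higher, 0.635% and 1.96% lower), while 6 genes had an unadjusted p under 0.05. Without C57Bl/6J replicate 1 the 18 calls became 30, and 1 gene passed in C3H/HeJ. Without 129S1/ImJ replicate 1 they became 12, with 3 in 129S1/ImJ.

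**Figure D5:**
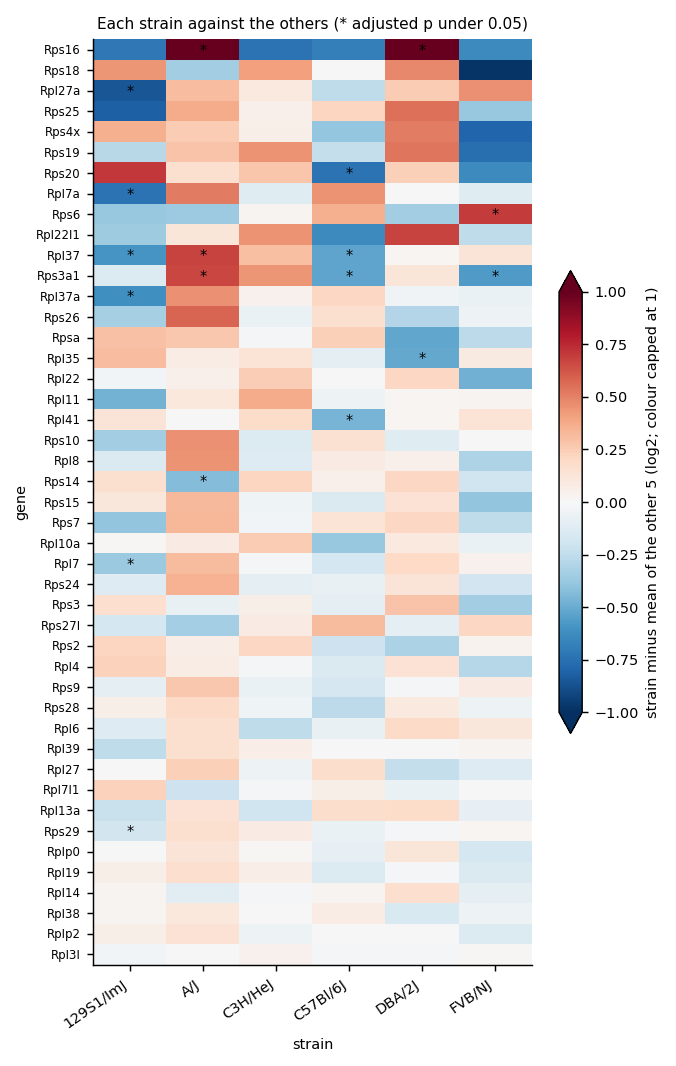
Difference (log2) of each strain, in columns, from the mean of the other 5 strains for the 45 tested genes, in rows sorted by their largest difference; red is higher, blue lower, colour is capped at 1 and stars mark an adjusted p under 0.05. The 18 stars lie mainly in 129S1/ImJ (6), A/J (4) and C57Bl/6J (4), and none lies in C3H/HeJ.

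Markers of blood cells moved with strain too. Of 13 red cell markers 11 were on the array, and their mean level over arrays ran from 7.45 to 9.51 in whole and 8.72 to 10.35 in GLOBINclear RNA. Strain means were highest in A/J (9.14 and 10.23) and lowest in 129S1/ImJ (8.03 and 9.33) and C57Bl/6J (8.13 and 9.03). Alas2, the first enzyme of heme synthesis in red cells, stood at 14.31 and 14.02 in the preparations and Slc4a1, the anion channel of their membrane, at 11.66 and 13.14. Of 8 platelet markers all were tested, 7 differed between strains in whole RNA, and strain means ran from 8.80 in 129S1/ImJ to 10.33 in C57Bl/6J and FVB/NJ. T cell, B cell, cytotoxic cell, neutrophil and monocyte markers had mean levels of 2.60 to 7.57 over whole arrays. Neutrophil markers were highest in 129S1/ImJ (5.89 whole, 7.33 GLOBINclear) and lowest in FVB/NJ (4.32 and 5.17), and 3 of 6 differed between strains in GLOBINclear RNA. In that preparation 2 of 6 B cell, 1 of 9 T cell, 1 of 5 monocyte and 0 of 4 cytotoxic cell markers differed by the same limma test. The labelled tissue had the markers of red cells and platelets at high level. The part of these cells in the strain differences of ribosomal protein genes was not tested.

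The preparations differed in control measures that touch the rise. In GLOBINclear RNA the 3′ signal of the beta-actin and Gapdh controls exceeded the 5′ signal by 1.17 ± 0.20 (SD, n = 18), and by 0.13 ± 0.18 in whole RNA. Hybridization spike-ins were lower by 2.08 and poly-A spike-ins higher by 1.94 in GLOBINclear RNA, and 18S ribosomal RNA was lower by 0.92, each in all 18 mice. Centring on the hybridization spike-ins moves the median change of all sets from -0.05 to 2.03 and that of the ribosomal protein genes from 1.14 to 3.22, so that the distance between them is 1.2 on either scale. With all arrays forced to 1 distribution the genes' median was 0.31, and that of all sets -0.08. The part of these measures in the rise was not tested.

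Other parts of the translation machinery were read from lists of genes chosen by function, against 39.4% of all sets that rose and 47.6% that fell. The lists were not tested against each other or against the array. Of 28 tested initiation factors 24 rose and 3 fell, with a median change of 1.06. Eif3c and Eif3i, subunits of the factor that prepares the small subunit, rose by 2.34 ± 0.08 (SE) and 2.27 ± 0.09. Of 8 tested elongation and nascent chain genes 7 rose and 1 fell, with a median of 1.57. Eef1b2, the exchange factor of the elongation factor that brings tRNA, rose by 1.64 ± 0.06 and Eef2, which moves the ribosome along the mRNA, by 2.03 ± 0.09. Tpt1 and the poly-A binding protein gene Pabpc1, both TOP mRNAs named after their values were seen, fell by 0.21 (SE 0.02) and 0.24 (SE 0.02) from levels of 14.45 and 14.37 near the top of the scale.

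Of 23 tested ribosome biogenesis genes 12 rose, 6 fell and 5 did not pass, with a median of 0.22. Dkc1, the pseudouridine synthase of ribosomal RNA, rose by 1.62 ± 0.09 (SE) and Sbds, which helps release the factor that keeps new large subunits idle, by 1.64 ± 0.11. Of 8 tested rescue and recycling genes 5 rose and 2 fell (median 0.55), with Gtpbp2, which acts on stalled ribosomes, at 1.70 ± 0.10 and Hbs1l, its relative in rescue, at 1.17 ± 0.10. Of 10 tested genes of TOP mRNA control 8 rose and 2 fell (median 0.82). Eif4ebp2, a repressor of the cap-binding protein, rose by 1.86 ± 0.08 and Larp1 by 1.65 ± 0.08. Of 67 tested mitochondrial ribosomal protein genes, out of 76 on the array, 54 rose, 3 fell and 10 did not pass, with a median of 0.51. Mrpl57 rose by 1.88 and Mrpl51 by 1.30. Fau, which encodes a ribosomal protein outside the symbol rule, rose by 1.2.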

How the data were processed

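The log2 levels that the authors deposited for every probe set were used without change, and their range shows the scale. The tools named per the submitters' processing notes are affy, MAS5 and GCRMA, and joint or separate normalization of the preparations is not given in these sources. Groups came from sample titles, and 0 value columns were unused. The 64 control sets were left out, and 22518 sets with a mean above log2 2.89 were fitted with limma 3.58.1 in R 4.3.3 (lmFit, eBayes with intensity trend), with Benjamini-Hochberg adjustment and a threshold of 0.05. The depletion effect had the mouse as a block. The design text states that the samples are paired, and the deviations of a mouse's 2 arrays correlated at a median of 0.379 (-0.078 to 0.664, over 0.1 in 17 of 18 mice). The strain label 129S1/ImJ is written 129S1/SvImJ in the protocol text. Scripts were tested on simulated data. The arrays' number limits precision, and 3 mice per strain were separate animals. Genes were named from the platform's annotation, and all 49 matched RefSeq by Entrez number with 0 changed symbols. The members and lists were chosen with earlier results of these data known. Genes with values were those with the 8 largest rises in all mice, falls, misses, the smallest p-values of each strain test (6 or 8), up to 3 calls per strain, paralogs and up to 2 genes per pathway list. Alternatives changed scaling, filter, probe set, trend, block and mice. Figures used matplotlib.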

Additional observations from a re-analysis of the deposited data

Results flagged for a closer look

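The depletion effect on Rps16 had an adjusted p of 0.000927 in limma's interaction test between strains. In whole RNA the gene stood at 5.61 to 6.69 in A/J and at 3.86 to 6.94 in DBA/2J, and in GLOBINclear RNA of these strains at 2.41 to 2.87. The other 4 strains were near the floor in both preparations. The change was -3.42 ± 0.37 (SE) in A/J and -3.23 ± 0.37 in DBA/2J, against -0.15 to 0.03 elsewhere. Rps16 exceeded the level required for a test only through the whole arrays of these 2 strains, its other strain means being 2.38 to 2.65, so the test had to show a difference and the values are a description. Rps16 had a single probe set, so no second set can be read beside it.

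The depletion effect on the additional Rps9 probe set differed between strains as well, with an adjusted p of 0.00146. It rose by 1.92 ± 0.23 (SE) in C57Bl/6J and changed by -0.65 to -0.14 in the other strains. Without any 1 mouse the adjusted p was 0.0123 at most. The set was singled out among the sets that did not represent their gene.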

How the results depend on the processing

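The count of genes that rose was 42 in every fit without 1 mouse and without the replicate block, and the fit without the replicate block also gave 2 genes that fell and a median of 1.14; no count or median moved. With all arrays quantile normalized 29 genes rose and 9 fell, with a median of 0.31, 2 genes with strain-dependent effects, and 2 and 4 calls in C57Bl/6J and FVB/NJ. With quantiles within each preparation the counts were 3, 2 and 4. Spike-in centring gave 45 and 0 genes, a median of 3.22, 2 strain-dependent effects, and 2, 1 and 0 calls in C57Bl/6J, DBA/2J and FVB/NJ. On that scale 11 and 1 genes differed between strains in whole and GLOBINclear RNA, against 6.45% and 7.43% of all sets. Rpl3l (1.90), Rps16 (0.90) and Rpl14 (1.98) then rose. Among all calls 99.9% then rose, against 45.3% on the deposited scale. Median centring left 2 and 1 calls in C57Bl/6J and FVB/NJ. With no filter 4 genes fell, 1 differed in whole RNA (1.73% of all sets), and C57Bl/6J and FVB/NJ had 2 and 1 calls. With a filter at log2 5, 37 genes were tested, 0 fell and Rps16 was not tested. Their median of 1.19 lay below the 1.31 of all sets, but this filter also let in sets dim in whole RNA through their rise. Under it 0 genes had strain-dependent effects, and A/J and DBA/2J had 9 and 1 calls. Between strains 7 of the 37 genes differed in whole RNA, against 41.7% of all sets, and 15 in GLOBINclear RNA, against 52.4%. The genes' shares thus lay below the background. The mean of a gene's sets gave 3 strain-dependent effects and a median of 0.81, and no intensity trend 2 calls in C57Bl/6J.

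Without 1 mouse, 2 to 3 genes fell, 1 to 3 had strain-dependent effects, 1 to 4 differed in whole and 6 to 18 in GLOBINclear RNA, and calls over all strains ran from 12 to 30. By strain the calls were 3 to 10 (129S1/ImJ), 3 to 7 (A/J), 0 to 1 (C3H/HeJ), 1 to 7 (C57Bl/6J), 1 to 2 (DBA/2J) and 0 to 5 (FVB/NJ), and the median change 1.12 to 1.17. Chosen after seeing the data, leaving out both arrays of C57Bl/6J replicate 1 and 129S1/ImJ replicate 3 gave 2 strain-dependent effects, 22 genes in GLOBINclear RNA (14.5% of all sets), 30 calls, and 10, 1, 7 and 4 calls in A/J, C3H/HeJ, C57Bl/6J and FVB/NJ. Also chosen then, the brightest set of a kind other than x_at and s_at existed for 39 tested genes and gave 5 genes in GLOBINclear RNA and 11 calls, 1 each in C57Bl/6J and DBA/2J; Rps20 in C57Bl/6J then changed sign (0.00717), read from a dim set. Apart from the probe sets, genes or mice removed by construction, the cause was not tested. Levels near the floor, and near the top of the scale, limit the size of changes.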
